A study of Mus musculus with 6 samples.

Results

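Mouse E14 embryonic stem cells that carried Snail-ER were set at 2 and 4 h of 4-hydroxytamoxifen (4-OHT) against the same cells at 0 h, on 1 Illumina bead array per time. These were 3 of the 6 arrays of the series, which ran on to 8, 12 and 24 h. Genes were read only where the authors' normalized signal was 100 or more on at least 2 of the 3 arrays, which held for 5535 of the 19057 genes with a probe. Every group shared the Snail-ER fusion, E14 cells grown with serum and LIF (a cytokine that keeps mouse stem cells undifferentiated), and RNA extraction with TRIzol. The groups differed only in the labelled hours of 4-OHT, a ligand given so that the fusion moves into the nucleus. The labels name neither the promoter that drives the fusion nor whether the cells were 1 clone, and no array of cells without the fusion or without 4-OHT for the same hours was analysed here. Hours in culture, the ligand and the fusion therefore cannot be told apart.

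Snail (Snai1) is a zinc finger repressor that binds E-boxes, short DNA motifs, and recruits histone-modifying corepressors to its targets. It is best known for switching off epithelial junction genes when epithelial cells become mesenchymal. Mouse embryonic stem cells are themselves epithelial in character. In culture they can leave the naive state, kept by factors such as Nanog and Zfp42, for a primed state resembling the epiblast after implantation.

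All 7 embryonic stem cell markers were read, and their summed normalized signal was 35730, 30841 and 31650 at 0, 2 and 4 h. Most of that sum was Dppa5a, with 21314, 18784 and 19745. The members did not move together: by the brightest probe Sox2 and Utf1 were above 0 h at both times and the others below. Of 10 fibroblast feeder markers only Thy1 reached 100, and no marker of mesoderm or neuroectoderm did. Among 10 primitive endoderm markers only Col4a1 and Sparc reached 100, and Gata4, Gata6 and Sox17 stayed at 10.4 or below. Of 8 trophectoderm markers Tfap2c and Krt8 reached 100, with a summed signal over the list of 638, 542 and 508. In the part of the non-normalized table analysed here, 7002, 6561 and 8844 of 32765 probes were detected (detection p under 0.01) at 0, 2 and 4 h, and every probe at 100 or more was among them. The housekeeping gene Gapdh had signals of 13079, 13763 and 13079. Actb probes did not move together. The brightest had 7205, 7823 and 7513. All its other probes were lower than at 0 h at both times, with 369, 193 and 283, with 313, 200 and 257, with 2989, 2463 and 2893, and with 2281, 2224 and 1934. The mean difference over all Actb probes was -0.25 (log2). The positions of these probes in the transcript are not known here. The part that RNA quality may have in any difference was not tested.

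The construct's own genes gave no check of the labels. The brighter Snai1 probe had signals of 84.9, 55.2 and 47.9 at 0, 2 and 4 h, below the value needed to be read. No Esr1 probe was above 39.7 on these arrays. The files do not say if these probes can bind RNA of the fusion, and the treatment moves the protein rather than inducing its RNA.

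Differences were taken on log2(signal + 16), with negative signals set to 0, so folds of dim genes are understated. At 2 h, 41 genes were at least 1.5-fold higher and 47 at least 1.5-fold lower than at 0 h (0.741% and 0.849% of the genes read). At 4 h the counts were 30 and 79 (0.542% and 1.43%). Past 1.5-fold in the same direction at both times were 10 higher genes (0.181%) and 31 lower genes (0.56%). With 1 array per time these folds have no replicate error, and both differences share the 0 h array, so that a deviation of that array enters both. In bulk RNA, fewer cells of a kind and less RNA per cell cannot be told apart.

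A limma fit of the 2 and 4 h arrays together against the 0 h array gave a standard error (SE) from the difference between the 2 h and 4 h arrays, pooled over genes. It called 129 genes higher and 176 lower (2.33% and 3.18%; Benjamini-Hochberg adjusted p of 0.05), among them all 41 genes past 1.5-fold at both times. The fit rests on the same 3 arrays and differences that chose these 41 genes. Their calls and adjusted p-values are therefore a description and give no separate support. The fit has 1 residual degree of freedom and assumes that the lone 0 h array varies like the others. Run on the non-normalized table, after background correction, no gene was called by limma (0 of those tested; before adjustment 556 had p below 0.05, and the lowest adjusted p was 0.23), although all 27 of the 41 genes held there kept their direction. The words higher and lower below describe the signals, and an adjusted p is that of the normalized table.

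**Figure D1:**
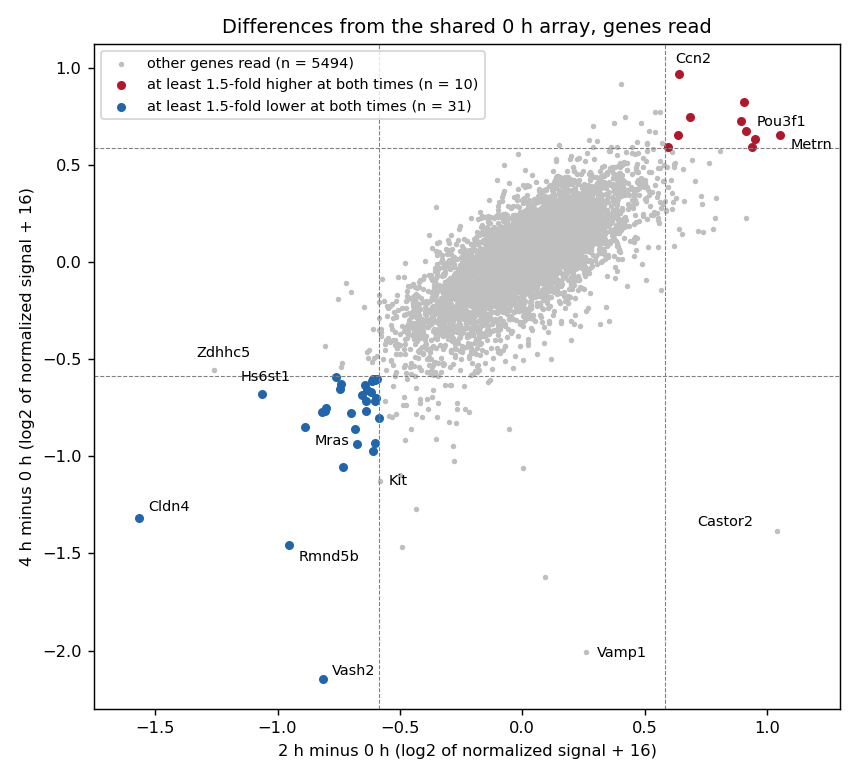
Each point is 1 of the 5535 genes read, with its 2 h minus 0 h difference on the horizontal axis and its 4 h minus 0 h difference on the vertical axis (log2 of normalized signal + 16). Dashed lines mark 1.5-fold; the 10 genes past it upwards at both times are red and the 31 past it downwards are blue. Both axes contain the same 0 h array, so the slope of the cloud is built in. Cldn4, Vash2 and Rmnd5b lie farthest out among the lower genes, and Castor2 is the 1 gene past 1.5-fold in opposite directions.

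Promoter sequences were set beside these values because Snail binds the E-box CAGGTG, which reads CACCTG on the other strand. RefSeq promoters (GRCm38.p6, 250 bases before to 50 after a gene's start) were found for 27 of the 31 lower genes and 8 of the 10 higher genes. At least 1 match, on either strand, lay in 11 of 35 windows of the lower genes (31.4%), in 1 of 10 windows of the higher genes (10%), and in 1013 of 5842 windows of all genes read (17.3%). A match is a description of the letters and not evidence of binding. The windows below belong to the 3 lower genes with 2 matches (Cldn4, Eras and Ak1), to Rmnd5b and E2f2, and to the naive marker Zfp42. They were chosen after their values were seen, with matches in capitals.
Cldn4 (chr5:134946885-134947184, minus strand): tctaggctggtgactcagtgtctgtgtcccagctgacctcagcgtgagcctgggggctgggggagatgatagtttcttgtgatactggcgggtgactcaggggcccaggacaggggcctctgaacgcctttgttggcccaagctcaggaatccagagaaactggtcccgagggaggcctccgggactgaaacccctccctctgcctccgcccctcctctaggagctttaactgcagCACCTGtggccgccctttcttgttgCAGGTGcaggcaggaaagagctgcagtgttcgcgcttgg
Eras (chrX:7928558-7928857, minus strand): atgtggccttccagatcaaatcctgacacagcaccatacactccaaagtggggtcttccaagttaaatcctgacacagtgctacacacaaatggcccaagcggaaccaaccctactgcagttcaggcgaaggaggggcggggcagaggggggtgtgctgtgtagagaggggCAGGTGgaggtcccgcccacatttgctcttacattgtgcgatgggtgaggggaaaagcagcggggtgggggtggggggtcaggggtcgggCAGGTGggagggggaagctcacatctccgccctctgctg
Ak1 (chr2:32628140-32628439, plus strand): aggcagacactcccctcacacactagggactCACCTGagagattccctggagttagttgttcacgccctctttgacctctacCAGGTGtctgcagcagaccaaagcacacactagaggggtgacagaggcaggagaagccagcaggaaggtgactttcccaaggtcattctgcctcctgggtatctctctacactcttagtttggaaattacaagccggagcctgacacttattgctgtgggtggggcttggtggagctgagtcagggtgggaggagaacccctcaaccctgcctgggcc
Rmnd5b (chr11:51635847-51636146, minus strand): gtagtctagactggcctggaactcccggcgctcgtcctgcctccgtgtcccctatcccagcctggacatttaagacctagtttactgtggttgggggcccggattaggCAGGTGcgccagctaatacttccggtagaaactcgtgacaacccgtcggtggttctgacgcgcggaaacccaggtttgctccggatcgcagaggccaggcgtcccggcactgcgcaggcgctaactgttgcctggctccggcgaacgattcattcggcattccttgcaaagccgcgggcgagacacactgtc
E2f2 (chr4:136180532-136180831, plus strand): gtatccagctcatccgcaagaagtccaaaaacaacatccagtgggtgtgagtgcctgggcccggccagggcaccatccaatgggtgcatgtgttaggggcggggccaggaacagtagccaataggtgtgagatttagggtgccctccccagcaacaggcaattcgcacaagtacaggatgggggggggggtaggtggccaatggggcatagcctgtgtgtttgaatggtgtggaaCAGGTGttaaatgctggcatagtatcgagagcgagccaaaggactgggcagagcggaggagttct
Zfp42 (chr8:43306960-43307259, minus strand): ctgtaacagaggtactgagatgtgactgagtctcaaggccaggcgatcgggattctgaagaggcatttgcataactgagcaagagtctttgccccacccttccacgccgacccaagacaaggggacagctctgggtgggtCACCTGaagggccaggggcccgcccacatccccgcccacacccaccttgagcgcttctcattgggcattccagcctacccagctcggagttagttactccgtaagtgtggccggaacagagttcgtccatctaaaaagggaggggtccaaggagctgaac
In Cldn4, the gene with the steepest difference of the 6 at 2 h, the matches begin at positions -14 and 12 relative to the annotated start (first transcribed base 1). In Eras they begin at -79 and 12, and in Ak1 at -219 and -168.

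Of the genes lower at both times, Cldn4 had the largest difference at 2 h and Vash2 at 4 h. Cldn4, a claudin of tight junctions, had signals of 864, 281 and 337 at 0, 2 and 4 h. Both induced arrays were thus far below the 0 h array, 2.96-fold at 2 h and 2.49-fold at 4 h (mean difference -1.44 ± 0.13, SE, log2; limma adjusted p = 5.5e-11). Mcam, a cell adhesion molecule of the immunoglobulin family, had 327, 198 and 163, and its second probe 157, 131 and 96.4. Atp1b1, the beta subunit of the sodium pump, had 857, 546 and 537, a level that hardly differed between 2 and 4 h. The sulfotransferase gene Hs6st1, whose product modifies heparan sulfate, was lowest at 2 h, with 364, 166 and 221. Ripk4, a kinase of epithelial differentiation, had 240, 147 and 143 by its brighter probe and 169, 116 and 123 by its other. The brighter probe had 246, 388 and 185 at 8, 12 and 24 h, so it was under its 0 h signal again at 24 h.

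Of 34 genes in a list of epithelial junctions and polarity, 10 were read, and their median difference was -0.16 at 2 h and -0.28 at 4 h, against 0.01 and 0.03 over all genes read. The fit called 2 lower, Cldn4 and Cldn6, and none higher, against 3.18% lower and 2.33% higher of all genes read. Those shares also stand beside the counts of the other lists below. All lists were chosen with earlier results of these data known. Cldn6, another claudin, had 439, 308 and 257 at 0, 2 and 4 h (limma adjusted p = 0.0042), past 1.5-fold at 4 h alone. Spint1, a membrane protease inhibitor, had 994, 834 and 700, and the polarity gene Llgl2 1140, 908 and 871; neither passed the fit (limma adjusted p = 0.059 and 0.061). The brighter probe of Cdh1, the E-cadherin gene and a known Snail target, had 1064, 973 and 980, a mean difference of -0.12 (limma adjusted p = 0.61). Its dimmer probe had 73.8, 32.4 and 39.8, never reached 100, and was not detected at 2 h. The bright Cdh1 probe thus differed little from 0 h, by 1.09-fold (2 h) and 1.08-fold (4 h) downwards.

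Vash2, which encodes a tubulin-modifying peptidase, had 218, 117 and 37.0 at 0, 2 and 4 h, the largest difference by 4 h of the genes past 1.5-fold at both times (4.42-fold lower). Spire2, an actin nucleator, had 200, 114 and 88.0. Gas2l3, a protein that links actin filaments to microtubules, had 249, 142 and 153. In all 3 the 0 h signal was the highest of the 3 arrays, as the choice of these genes requires. The centriolar gene Cep295 had 371, 242 and 206 and the calcium-binding S100a11, much brighter, 1907, 1134 and 1227.

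Eras, an embryonic stem cell Ras, had 570, 349 and 307 at 0, 2 and 4 h (mean difference -0.77 ± 0.13, SE; limma adjusted p = 0.00018). Mras, a related GTPase, had 326, 169 and 174, with a second probe at 217, 131 and 114 that was also past 1.5-fold at both times. Fgf17, a ligand of fibroblast growth factor receptors, had 316, 201 and 153. The 3 genes were all chosen as 1.5-fold or more below 0 h at both times. Just outside that limit stood Kit, a receptor tyrosine kinase, with 645, 426 and 287, which differed by -0.58 at 2 h and by -1.13 at 4 h (limma adjusted p = 0.00018). Bmp4, a secreted signal that cooperates with LIF, had 860, 597 and 494 (limma adjusted p = 0.0012) and was the 1 gene called of 4 BMP pathway genes read. Kit and Bmp4 were lower at 4 h than at 2 h.

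**Figure D2:**
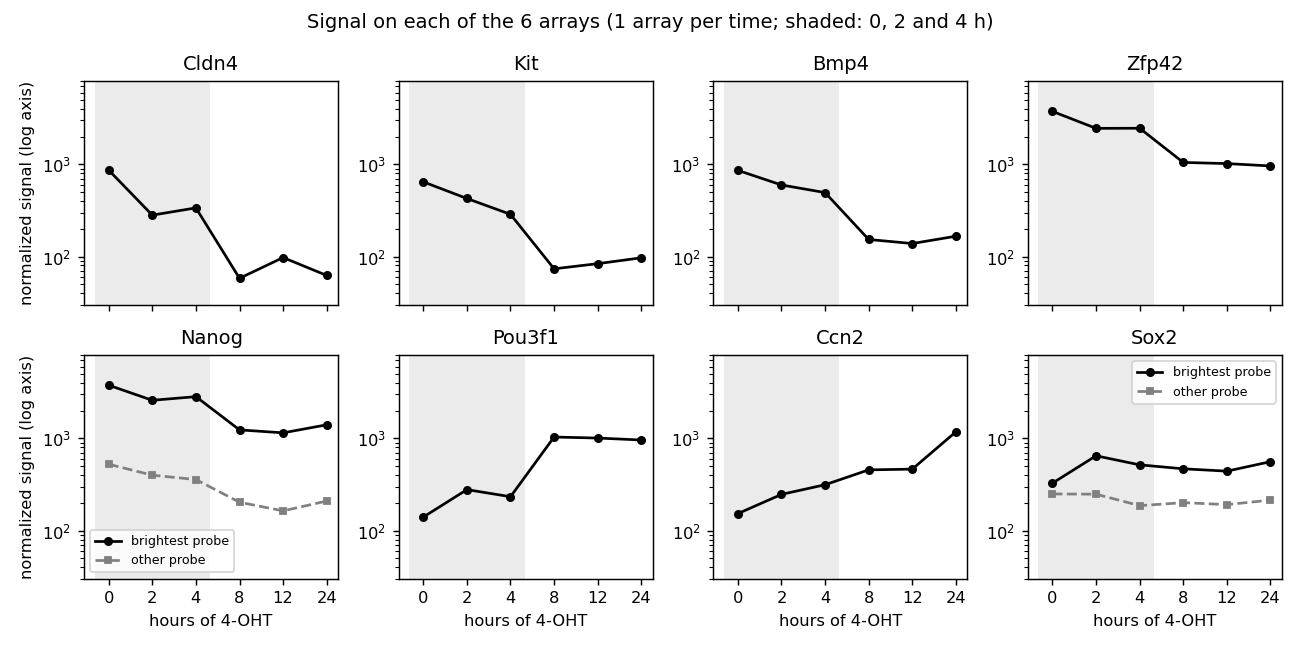
Normalized signal (log axis) of 8 genes on each of the 6 arrays, in order of hours of 4-OHT, with 0, 2 and 4 h shaded. Cldn4, Kit, Bmp4, Zfp42 and Nanog are below their 0 h signal at 2 and 4 h and lower again from 8 h, Pou3f1 and Ccn2 run the other way, and for Nanog and Sox2 a second probe is drawn in grey, which for Sox2 does not follow the first.

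Most naive pluripotency genes that were read had lower signals as early as 2 h. Of 20 genes in the list, which was chosen with earlier results of these data known, 14 were read. Their differences and calls all share the 0 h array. The fit called 8 lower and none higher, against 3.18% lower and 2.33% higher of all genes read. The median difference was -0.36 at 2 h and -0.27 at 4 h, against 0.01 and 0.03 over all genes read. Zfp42, known as Rex1 and used as a marker of the naive state, had 3749, 2454 and 2461 at 0, 2 and 4 h, the 1 member past 1.5-fold at both times. Nanog, a homeobox factor that stabilises self-renewal, had 3769, 2586 and 2833 (limma adjusted p = 0.0031), and its second probe had 524, 399 and 357. The 2 Nanog probes were both below 0 h at 2 h and at 4 h. The transcription factor gene Tfcp2l1 had 1623, 1195 and 1076, the nuclear receptor gene Nr5a2 438, 293 and 293, and Tbx3, a T-box factor, 546, 403 and 394. Tcl1, a coactivator of the kinase Akt, had 738, 571 and 510. Other members differed less or in the other direction. Klf4, a Krüppel-like factor, had 383, 333 and 401, and Gbx2, a homeobox gene, 529, 784 and 559.

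Of the wider pluripotency list, 16 of 20 genes were read, with a median of 0.02 at 2 h and -0.10 at 4 h. The fit called 2 lower (Kit and Eras) and 1 higher (Sox2), against 3.18% and 2.33% of all genes read. Pou5f1, which encodes OCT4, had 4383, 4046 and 3920 at 0, 2 and 4 h by its brighter probe and 2489, 3046 and 2675 by its other, so its probes pointed in opposite directions. Sox2, the partner of OCT4, had 327, 647 and 516 by its brighter probe, past 1.5-fold upwards at both times. Its other probe had 249, 248 and 186. The probes of Sox2 therefore give no shared direction.

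Primed epiblast genes lay above 0 h. Of 16 genes in the list 10 were read, with medians of 0.34 at 2 h and 0.31 at 4 h, against 0.01 and 0.03 over all genes read. This list too was chosen with earlier results of these data known, and its differences and calls share the 0 h array. The fit called 4 higher and none lower, against 2.33% and 3.18% of all genes read. Pou3f1, a POU factor of the primed state, had 140, 278 and 233 at 0, 2 and 4 h (mean difference 0.79 ± 0.15, SE; limma adjusted p = 0.0008). Meis2, a homeobox factor also held by the retinoic acid list, had 165, 265 and 269. Sox11 had 216, 297 and 315, and Sox4, like Sox11 a factor of the SoxC group, 350, 512 and 453. In all 4 both induced arrays were above the 0 h array. The mean differences of the 10 genes ran from 0.07 to 0.79. The DNA methyltransferase gene Dnmt3b had 6823, 8171 and 8209 and did not pass the fit (limma adjusted p = 0.058).

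The other genes higher at both times were few and of mixed function. Ccn2, a matricellular protein gene and a target of the YAP coactivator, had 153, 247 and 314 at 0, 2 and 4 h (mean difference 0.80; limma adjusted p = 0.00066). It was the 1 gene past 1.5-fold at both times among 6 YAP and SRF targets read, which had medians of 0.10 and 0.11. In the same list Tead1, a DNA-binding partner of YAP, was called lower, with 570, 391 and 389. Metrn, a secreted neurotrophic factor gene, had 247, 529 and 398, and Ccdc85b 193, 372 and 329. Trappc3, a subunit of the TRAPP vesicle tethering complex, had 246, 486 and 378, and the kinase gene Dapk3 had 68.2, 119 and 125. Nrbp1, a pseudokinase gene, had 50.3, 108 and 101, and its 0 h signal lay under that of the dimmest detected probe of that array (60.6), which leaves only lower bounds, at least 1.62-fold higher (2 h) and at least 1.53-fold higher (4 h). Nrbp1 and Dapk3 were read only through the 2 and 4 h arrays, where they are high. E2f6, a repressive member of the E2F family, had 327, 502 and 501, and its second probe 342, 433 and 430. Metrn, Ccdc85b and Trappc3 were higher at 2 h than at 4 h, and Ccn2 was higher at 4 h. Prmt1, an arginine methyltransferase gene, fell just short of 1.5-fold at 4 h, with 2894, 5071 and 4303.

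Cell cycle, chromatin and RNA genes made up further members of the lower group. E2f2, an activating E2F factor, had 318, 173 and 179 at 0, 2 and 4 h, and its second probe had 263, 141 and 178. Cbx5, which encodes the heterochromatin protein HP1 alpha, had 470, 304 and 303. Prrc2c had 606, 341 and 353 by its brightest probe, and of its 3 other probes at 100 or more, 2 were lower at both times and 1 had 107.4 at 2 h against 107.0 at 0 h. The lists of proliferation genes showed little. None of 10 G2 and M phase genes and none of 15 replication genes read was called, and their mean differences stayed between -0.24 and 0.26. Of 19 ribosomal protein genes Rpl23 was called higher and Rps19 lower, with a median of -0.04 at both times, and none of 15 ribosome biogenesis genes was called.

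Metabolic and stress genes gave single members rather than whole lists. Over all genes read the fit called 3.18% lower and 2.33% higher, so 1 call in a short list says little about that list. Ankrd37, a gene induced by hypoxia, had 231, 147 and 113 at 0, 2 and 4 h and was the only one of 14 hypoxia and glycolysis genes called. Ak1, an adenylate kinase gene, had 477, 301 and 284. Of 19 respiratory chain genes 3 were called lower (Ndufa1, Ndufb5 and Cox6c) and none higher, with medians of -0.16 and -0.10. Ndufa1, a complex I subunit, had 3146, 2319 and 2345 (limma adjusted p = 0.0069), so both induced arrays were below 0 h by less than 1.5-fold. Scd2, a fatty acid desaturase gene, was the 1 of 11 lipid synthesis genes called, with 473, 346 and 296. Ddit4, an inhibitor of mTORC1 signalling, was the 1 called of 10 amino acid and ER stress genes, with 1312, 946 and 1028.

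The remaining lower genes were of mixed function. Rmnd5b, a subunit of a ubiquitin ligase complex, had 385, 191 and 130 at 0, 2 and 4 h, and only Cldn4 and Vash2 had larger mean differences (limma adjusted p = 2.9e-06). Gng2, a G protein gamma subunit gene, had 438, 284 and 282, and the transcript D930048N14Rik 391, 250 and 251. In these last members the 2 and 4 h signals were nearly alike. Dimmer members were Nfatc2ip (231, 147 and 136), Rcc1l, a mitochondrial protein gene (199, 116 and 110), and Dtx3l, a ubiquitin ligase gene (199, 122 and 122). Syngr3, a synaptic vesicle protein gene, had 189, 116 and 105, Pigyl 186, 99.5 and 103, and Rpl22l1, a ribosomal protein paralogue, 181, 113 and 114. The zinc finger gene Zbtb14 had 173, 108 and 99.0, and Dnase2a, a lysosomal DNase gene, 163, 89.5 and 102. These dimmer genes were from 1.51-fold to 1.75-fold lower at either time.

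Immediate early and heat shock genes, often raised by handling of cells, were not called in either direction. Only 4 of 22 immediate early genes were read, with medians of -0.04 and -0.02, and 11 of 17 chaperone genes, with medians of 0.08 and 0.05. None of 3 estrogen response genes read was called. Of 3 interferon response genes, 2 were called lower, against 3.18% of all genes read. Irf1, an interferon regulatory factor, had 1144, 793 and 760 at 0, 2 and 4 h, and Ifitm3, a membrane protein that restricts viruses, 5630, 4303 and 3985 (limma adjusted p = 0.0031 for each). None of 15 Snail corepressor and cofactor genes was called.

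Of 15 mesenchymal and cytoskeletal genes read, 2 were called higher and none lower, against 2.33% and 3.18% of all genes read. Their medians were 0.10 and 0.08, against 0.01 and 0.03. Serpinh1, a collagen chaperone gene, had 131, 175 and 226 at 0, 2 and 4 h (limma adjusted p = 0.036). Zyx, a focal adhesion protein, had 286, 354 and 440 (limma adjusted p = 0.045). Both were higher at 4 h than at 2 h. Vim, the vimentin gene, had 181, 242 and 192 and did not pass (limma adjusted p = 0.41).

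The remaining signalling lists also gave single calls, which say little about a list when 2.33% of all genes read were called higher and 3.18% lower. The receptor gene Acvr2b was called higher of 10 Nodal and activin genes read. In the FGF and ERK list of 9 read, Spred1 was called higher, with 345, 457 and 471 at 0, 2 and 4 h, and Spry4 lower, with 280, 197 and 183, although both encode inhibitors of the ERK pathway. None of 7 Wnt pathway genes was called. Of 10 p53 targets, Sesn1, a stress-induced regulator of mTORC1, was called higher, with 219, 335 and 316. Of the trophectoderm markers 2 were read. Tfap2c, a trophectoderm and germline factor, was called lower, with 479, 341 and 309, while Krt8, a keratin gene, had 124, 148 and 157 and did not pass (limma adjusted p = 0.39).

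Later arrays showed which early differences went on. A limma fit of the 8, 12 and 24 h arrays against the 2 and 4 h arrays does not use the 0 h array, though it shares the 2 and 4 h arrays with the choice of these genes. It called 480 genes higher and 681 lower (8.67% and 12.3%). Leaving out 2 h gave 106 higher and 257 lower, and leaving out 4 h gave 170 higher and 348 lower. Of the 31 genes lower at both early times, 10 were lower still and 2 higher in that fit. Zfp42 had 1048, 1018 and 960 at 8, 12 and 24 h (change -1.27 ± 0.09, SE; limma adjusted p = 2.6e-06). Cldn4 had 58.1, 97.5 and 62.4 at those times, and Mras 28.6, 23.4 and 52.5. At 8 h both lay under the dimmest detected probe of that array (62.0), so their 8 h signals give bounds only. These 3 genes were well below their 2 and 4 h signals on every later array. The 2 that were higher in that fit were Ripk4, which was under its 0 h signal again at 24 h, and Cklf. Cklf, a chemokine-like factor gene, had 334, 212 and 204 at 0, 2 and 4 h and 335 at 24 h by its brighter probe. Its other probe differed less, with 142, 116 and 136 at 0, 2 and 4 h.

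Of the 10 higher genes, Pou3f1 and Ccn2 were higher still in that fit and none was lower. Pou3f1 had 1033, 1008 and 959 at 8, 12 and 24 h, and Ccn2 455, 464 and 1177. The remaining 8 higher genes stayed on the upper side of the 0 h signal on all later arrays without passing the fit. E2f6, for example, had 424, 395 and 505. Over all 6 arrays, against log2(hours + 1), 310 genes rose and 464 fell (5.6% and 8.38%), and among them were 3 of the 10 higher genes and 18 of the 31 lower genes, a description only, since this fit holds the 0, 2 and 4 h arrays that chose them. With 0 h left out 117 rose and 206 fell, with 2 h left out 169 rose and 262 fell, and with 12 h left out 164 rose and 281 fell. On all 3 later arrays 29 of the 31 lower genes stayed under their 0 h signal. This count, and that of the 8 higher genes above, use the 0 h array that chose the genes. A deviation of that array alone would put later arrays on the same side, so both counts are a description only. The share over all genes read was not taken.

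**Figure D3:**
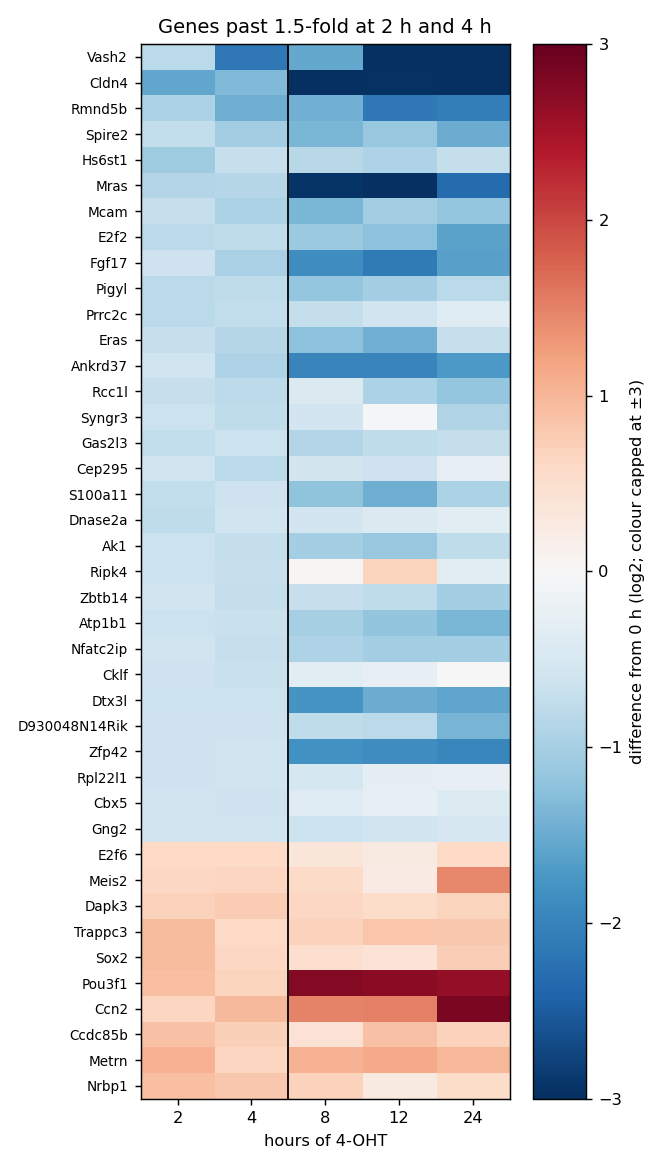
Difference from 0 h (log2 of normalized signal + 16, colour capped at ±3) at 2, 4, 8, 12 and 24 h for the 31 lower and 10 higher genes, ordered by the mean of 2 and 4 h; the vertical line separates the arrays that chose the genes. Cldn4, Mras, Zfp42, Ankrd37, Fgf17 and Dtx3l deepen from 8 h, Prrc2c, Cklf and Cbx5 move back towards 0 h, and Pou3f1 and Ccn2 are the 2 strongest later rises. Some depths, such as those of Cldn4, Mras, Ankrd37 and Dtx3l at 8 h, come from signals under the dimmest detected probe of that array (62.0).

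The 2 and 4 h arrays also differed from each other. From 2 h to 4 h, 3 genes were at least 1.5-fold higher and 19 at least 1.5-fold lower. Zdhhc5, a palmitoyltransferase gene, had 247, 93.8 and 163 at 0, 2 and 4 h. Stag2, a cohesin subunit gene, had 448, 424 and 641, just under 1.5-fold from 2 to 4 h. Vamp1, a vesicle fusion gene, had 109, 134 and 15.2, Tm4sf20 129, 139 and 31.3, and Castor2, a paralogue of the arginine sensor Castor1, 122, 267 and 36.7. All 3 were far below 100 at 4 h.

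The value of 100 shaped the directions unequally. Lca5, with 74.5, 100 and 104 at 0, 2 and 4 h, and Tbc1d2, with 100, 98.1 and 113, stood just inside it, and Rgs9bp, with 83.8, 99.9 and 121, and Col5a1, with 68.3, 99.8 and 103, just outside. A gene bright at 2 and 4 h alone was read, as 103 genes were, while 113 genes at 100 or more at 0 h alone were not. Of those 113, 45 were at least 1.5-fold lower at both times, with 0 h signals from 100.5 to 233 and a median of 123. Glt1d1 is an example, with 233, 80.4 and 64.5. Reading genes at 100 or more on any of the 3 arrays therefore gave 76 lower and 13 higher genes. Among the 31 lower genes, 0 h signals ran from 163 to 3749 with a median of 326. Of 8 other probes of 6 lower genes, 7 were lower at both times, 1 of them past 1.5-fold, and of 2 other probes of the higher genes 1 was higher at both.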

How the data were processed

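RNA of 6 samples of Snail-ER E14 cells was hybridised to Illumina arrays, 1 per time, and the 0, 2 and 4 h arrays are the subject here. The members and gene lists were chosen with earlier results of these data known. The authors deposited a normalized linear intensity for 45281 probes, with negative values and the same minimum and maximum on all 6 arrays, and, per the file headers, a second table of unnormalized intensity with a detection p-value for 32765 probes. GenomeStudio is given without a version in the submitters' processing notes; its steps and genome build are not given in the sources used here. Probe symbols came from the platform annotation, updated by Entrez identifier to RefSeq (GRCm38.p6): 34885 probes had 1 symbol (34807 matched), 18 several and 10378 none. Only probes with 1 symbol were used, the brightest over the 6 arrays standing for a gene. Fits used limma 3.58.1 in R 4.3.3 (lmFit, eBayes with intensity trend, 2-sided, Benjamini-Hochberg over the 5535 genes read). The fit of 0 h against 2 and 4 h was also run on simulated data. There the 0 h array varied like the others, so a deviation of that array was not tested. The p-values rest on scatter among single arrays, which may be technical. Named genes were the up to 15 highest and 15 lowest past 1.5-fold at both times, the 4 largest changes each way from 2 to 4 h, up to 3 leading genes per list, 8 fixed genes and 4 genes at the threshold; others named were chosen after their values were seen. The lists were 27 pathway lists (479 genes, 260 read) and 6 of cell type markers. In the 2-cell-like list 1 gene was read, in the retinoic acid list 2 and in the histone list 2; of these only Meis2 was called. The comparison of later with early arrays was added after the data were examined.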

Additional observations from a re-analysis of the deposited data

How the results depend on the processing

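A change of offset, signal floor or fold limit cannot reverse a direction. On the non-normalized table, from the same arrays, the 20 lower and 7 higher genes held there kept their direction. All 41 genes past 1.5-fold at both times kept it on the mean of all probes. Only 6 lower and 2 higher genes have another probe read, and Sox2 fell from a mean difference of 0.79 to 0.3. Counts moved with the offset, fold and table. With an offset of 1, 17 genes were higher, and with an offset of 50, 4 were higher and 15 lower. Reading genes at 200 or more left 14 lower. At the looser fold limit tried the counts were 194 higher and 220 lower, and at 2-fold 0 and 1. Leaving out the 2 h or the 4 h array gave 30 to 41 higher and 47 to 79 lower. Genes at 100 or more on any array gave 76 lower. On the 3413 genes of the non-normalized table, 17 were lower with normexp and 0 higher and 3 lower without background correction, against 20 lower for the same genes in the normalized table (chosen after the data were examined). No residual degree of freedom remains when 1 of the 3 arrays is left out, so those counts have no test.

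The fit of 0 h against 2 and 4 h depended more on processing than the differences did. It called 0 higher and 0 lower genes on the non-normalized table, with either background setting (556 and 552 at an unadjusted p under 0.05), 46 and 68 at a signal of 200, 33 and 59 on the mean of all probes, 19 and 38 without the intensity trend, and 62 higher as a line against log2(hours + 1). Its prior degrees of freedom, estimated from 1 residual degree per gene, were 47.7, and 4.44 and 4.2 on the non-normalized table. Within the normalized table they ran from 10.5 (mean of all probes) to 145 (100 or more on at least 1 array). They were unbounded on the genes that the non-normalized table holds, so the adjusted p-values hang on a poorly known prior. Of the 41 genes, 29 kept the call on the mean of all probes and 40 without the trend. For the 6-array fit, untransformed hours gave 14 higher and 11 lower, and leaving out 1 array gave 117 to 283 higher and 206 to 463 lower, lowest without the 0 h array for both. The later against early fit gave 106 to 682 higher and 257 to 827 lower, lowest without the 2 h array. No paired analysis was possible because each time has 1 array. Differences of dimmer genes could not be read, since the dimmest detected probe had 71.1 (2 h) or 31.4 (4 h), against 60.6 (0 h).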

Other observations

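Among genes bright at 0 h alone, and therefore not read, Disp3 had normalized signals of 188.8, 25.9 and 22.8 at 0, 2 and 4 h, Fech, the last enzyme of haem synthesis, 154.8, 27.9 and 38.3, and Cgref1 192.7, 54.3 and 26.9. The detection of these genes rests on the 0 h array, and they were chosen after their values were seen.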
